A study of Mus musculus with 7 samples.

Results

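A set of 9 genes of the Wnt pathway, of the 29267 genes in each expression table, were followed through all 7 libraries of the series. They are the ligand *Wnt3*, the secreted antagonist *Dkk1*, the feedback inhibitors *Axin2* and *Nkd1*, the DNA-binding effectors *Lef1*, *Tcf7* and *Tcf7l1*, and the target genes *Sp5* and *Cdx1*. They were taken as a named list, mapped by symbol to Ensembl identifiers, and all 9 were found. The rule that found them used no measured value, but the list was drawn up with earlier results of these data known. *Axin2*, *Sp5* and *Cdx1* were high in Oct4GFP+ cells made in mES medium and in cells converted in naïve medium, and all 3 were low in Oct4GFP+ cells made in 5C medium. *Wnt3* and *Dkk1* were highest in the libraries of the primed cells, *Nkd1* was highest in 5C-Oct4GFP- cells, and *Tcf7l1* and *Tcf7* differed little among the 5 libraries of pluripotent cells.

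RNA-Seq measured polyadenylated transcripts of mouse cells in 1 library per group, without replicates. The first 4 groups were OG2 mouse embryonic fibroblasts (MEFs), which carry an Oct4GFP transgene driven by the *Oct4* promoter and distal enhancer, infected with retroviruses for the reprogramming factors *Oct4*, *Sox2*, *Klf4* and *c-Myc*. They were grown in mES medium (serum, LIF and vitamin C) or in the serum-free 5C medium (N2, bFGF, LIF and vitamin C) and sorted by green fluorescence on day 15 into mES-Oct4GFP+ and mES-Oct4GFP- cells and, from 5C medium, 5C-Oct4GFP+ and 5C-Oct4GFP- cells. Isolated 5C-Oct4GFP+ cells were then converted in naïve medium, which contains LIF and the inhibitors known as 2i, or in primed medium, which contains bFGF and activin A, and are called 5C-Oct4GFP+ (naïve) and 5C-Oct4GFP+ (primed). R1 ESCs-primed are cells of the embryonic stem cell line R1 brought to the primed state, without the transgene or the retroviruses. Both converted groups and R1 ESCs-primed are labelled as passage 20, while parts of the study's text describe converted cells after only a few days in these media. One of the 2i compounds, CHIR99021, inhibits GSK3, the kinase that marks β-catenin for destruction. According to the methods, R1 ESCs-primed were induced on MEF feeder cells and maintained with CHIR99021 and IWR-1, a tankyrase inhibitor that stabilizes Axin proteins, in place of bFGF and activin A. The sources used here do not say which of these supplements 5C-Oct4GFP+ (primed) cells were kept in, so every Wnt target value of that library may have been measured with or without both compounds. The mES and 5C media contain neither compound. Since each state was kept in its own medium, the medium and the state of the cells cannot be told apart, and cells in primed medium lost green fluorescence although their name keeps GFP+. The sorted cells were at passage 0. Between converted and sorted cells, passage number and sorting therefore cannot be told apart from medium and state either.

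In canonical Wnt signaling, a Wnt ligand binds a Frizzled receptor and an LRP co-receptor, which inactivates the complex of Axin, APC and GSK3 that otherwise destroys β-catenin. Stabilized β-catenin enters the nucleus and binds TCF and LEF proteins on DNA, where it relieves repression by *Tcf7l1* and activates targets such as *Axin2*, *Sp5*, *Cdx1*, *Lef1*, *Nkd1* and *Dkk1*, several of which in turn restrain the pathway. In mouse embryonic stem cells this branch is known to support the naïve state, and in the epiblast of the embryo *Wnt3* and its signal are needed to form the primitive streak.

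The upstream sequences of these genes hold different numbers of the core letters to which TCF and LEF proteins bind. RefSeq start sites (GRCm38.p6) were matched for 8 of the 9 genes, *Cdx1* being the one without a match, and the 250 bases before each start site were searched on both strands for CTTTG followed by A or T and again by A or T, 7 letters in all and 4 motifs, none of which can match where another does. *Sp5* and *Dkk1* each had 2 matches, *Lef1* had 1 before one of its 4 start sites, and *Wnt3*, *Axin2*, *Nkd1*, *Tcf7* and *Tcf7l1* had none. Among all 32851 such windows of 27025 genes, 14.8% held at least 1 match and 1.43% held 2 or more. A match here is a description of letters, and no binding was measured. The *Sp5* and *Axin2* windows are shown because these genes had the same high libraries with and without such letters, and the *Dkk1* stretch because it carries both of its matches. Each is written 5′ to 3′ on the strand of its gene, with the matches in capitals (chr2:70474673-70474922, plus strand, for *Sp5*, chr11:108920099-108920348, plus strand, for *Axin2*, and chr19:30549588-30549617, minus strand, for *Dkk1*).
Sp5: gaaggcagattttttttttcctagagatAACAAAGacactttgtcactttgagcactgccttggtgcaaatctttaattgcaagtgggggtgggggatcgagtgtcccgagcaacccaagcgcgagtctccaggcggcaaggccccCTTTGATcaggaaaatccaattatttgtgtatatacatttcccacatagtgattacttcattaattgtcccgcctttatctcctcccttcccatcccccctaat
Axin2: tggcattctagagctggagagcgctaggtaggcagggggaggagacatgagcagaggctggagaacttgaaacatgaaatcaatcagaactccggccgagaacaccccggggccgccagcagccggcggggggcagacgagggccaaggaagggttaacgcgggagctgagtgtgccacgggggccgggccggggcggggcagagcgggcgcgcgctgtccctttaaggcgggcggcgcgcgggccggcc
Dkk1: aaagCTTTGAAatcccatcccggCTTTGTT
In the *Sp5* window the matches began 222 and 104 bases before the start site, the first on the opposite strand. In *Dkk1* they began 117 and 98 bases before it, both on the strand shown. Some windows before RefSeq start sites lie partly or wholly inside the gene spans given below. Among these are the *Dkk1* stretch, the *Lef1* window with a match and the *Nkd1* window.

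The estimated counts summed to between 6108252 and 11496615 per library, and the 9 genes together took 1409.11 to 5979.44 of them. Values are TPM, a length-corrected share of all transcripts, which the authors calculated with RSEM from the counts and the length of each gene, so that levels can be compared between genes. The ratio of 2 libraries is given with an exact Clopper-Pearson 95% interval from the counts rounded to whole numbers. These intervals cover counting error only, since the spread between cultures is unknown with 1 library per group. Genes were called higher or lower at 2-fold, a difference of at least 1 in log2(TPM + 1), among genes with at least 1 TPM in either library. A count of 0 allows up to 3 counts, which sets the floor given for it in TPM. Where 1 of the counts was 0, a fold given as "at least" is the lower end of the 95% interval. Fewer cells that express a gene and less RNA per cell cannot be told apart in these bulk samples. Summed TPM of 10 pluripotent cell markers was 7810 in 5C-Oct4GFP+ cells, 5964 in mES-Oct4GFP+ cells and 5830 after naïve medium. It was 1430 and 1616 in the primed cells, and 220.3 and 515.7 in mES-Oct4GFP- and 5C-Oct4GFP- cells. *Dppa5a* alone gave 4714.1, 3754.04 and 3630.77 TPM of the 5C-Oct4GFP+, mES-Oct4GFP+ and naïve sums. It had 0.87 TPM after primed medium and 143.4 TPM in R1 ESCs-primed. With mES-Oct4GFP+ as reference, 4 of the 10 markers were called higher for 5C-Oct4GFP+, and *Nanog* and *Tfcp2l1* lower, beside 13.7% and 13.5% of all genes. Between the converted cells, 7 were called higher after naïve medium, and *Utf1*, *Tdgf1* and *Lin28a* lower, beside 16.7% and 22.2% of all genes. Sorted cells are labelled as fibroblasts by origin, and summed TPM of 14 fibroblast markers was 1194 and 492.8 in mES-Oct4GFP- and 5C-Oct4GFP- cells, 17.9 and 28.4 in the corresponding Oct4GFP+ cells and 17.7, 113.9 and 340.9 in the naïve, primed and R1 primed cells. Summed TPM of 6 endoderm markers was 178.7 in 5C-Oct4GFP+ (primed) cells, 170.2 in R1 ESCs-primed, 76.46 in mES-Oct4GFP- cells and at most 14.96 elsewhere. In the 2 primed libraries, in that order, *Sox17* (60.37 and 35.28 TPM) and *Foxa2* (82.9 and 105.89 TPM) were the highest of them. *Sox7* had 0.35 and 0.4 TPM there.

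*Wnt3* (ENSMUSG00000000125, chromosome 11, 103774150 to 103817957, mm10) encodes a ligand of the canonical pathway. It had 18.52 TPM in R1 ESCs-primed and 13.5 TPM in 5C-Oct4GFP+ (primed) cells. Cells from mES medium had 2.2 TPM in the Oct4GFP+ and 1.96 TPM in the Oct4GFP- fraction, and cells from 5C medium had 0.47 TPM and 1.25 TPM, in the same order. The level was 0.42 TPM after conversion in naïve medium. Both primed libraries thus lay above all the others, and the step from 5C-Oct4GFP+ (primed) to mES-Oct4GFP+ cells was 6.14-fold (3.96 to 9.96). The values of 5C-Oct4GFP+ and 5C-Oct4GFP+ (naïve) cells came from 8 and 6 reads, and their ratio of 1.12 (0.336 to 3.86) showed no difference detectable at this depth.

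*Dkk1* (ENSMUSG00000024868, chromosome 19, 30545863 to 30549665) encodes a secreted protein that blocks the LRP co-receptors. Its level was 28.7 TPM in 5C-Oct4GFP+ (primed) cells, 17.03 TPM in R1 ESCs-primed and 10.59 TPM in mES-Oct4GFP- cells. It was 4.89 TPM after naïve medium, 2.3 TPM in mES-Oct4GFP+ cells and 1 TPM in 5C-Oct4GFP- cells. No read was assigned to it in 5C-Oct4GFP+ cells, which allows up to 0.223 TPM. Each neighbour in this order differed from the next beyond counting error, although the interval came close to 1 for mES-Oct4GFP+ and 5C-Oct4GFP- cells, with a ratio of 2.3 (1.01 to 5.6).

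*Axin2* (ENSMUSG00000000142, chromosome 11, 108920349 to 108950783) encodes a scaffold of the complex that destroys β-catenin and is widely used as a readout of Wnt signaling. It had 105.27 TPM after conversion in naïve medium and 98.28 TPM in mES-Oct4GFP+ cells, which differ by a ratio of 1.07 (0.987 to 1.16). R1 ESCs-primed followed with 17.57 TPM and 5C-Oct4GFP+ (primed) cells with 10.01 TPM. The other 3 libraries lay between 3.99 and 5 TPM, and neighbours among them did not differ beyond counting error. A gap of 5.59-fold (4.75 to 6.6) therefore separated the 2 highest libraries from the rest. The mean transcript length that RSEM estimated for *Axin2* also varied, from 2642.33 bases in R1 ESCs-primed to 3678.08 bases in 5C-Oct4GFP- cells, with 2993.72 and 3097.76 bases in mES-Oct4GFP+ and 5C-Oct4GFP+ (naïve) cells.

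*Nkd1* (ENSMUSG00000031661, chromosome 8, 88521354 to 88594884) encodes a Dishevelled-binding inhibitor of the pathway. Its order differed from that of *Axin2*, with 16.24 TPM in 5C-Oct4GFP- cells, 8.86 TPM in R1 ESCs-primed, 6.73 TPM in mES-Oct4GFP- cells and 3.22 TPM after primed medium. It had 1.86 TPM in mES-Oct4GFP+ cells, 1.05 TPM after naïve medium and 0.7 TPM in 5C-Oct4GFP+ cells, and neighbours among these 3 did not differ beyond counting error. Among the 9 genes, it alone was highest in an Oct4GFP- library.

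*Sp5* (ENSMUSG00000075304, chromosome 2, 70474923 to 70477729) encodes a zinc-finger factor of the Sp family that is induced by β-catenin. Its level was 149.57 TPM after naïve medium, 116.5 TPM in mES-Oct4GFP+ cells, 28.86 TPM in R1 ESCs-primed and 13.25 TPM after primed medium. It was 6.71 TPM in mES-Oct4GFP- cells and 1.62 TPM in 5C-Oct4GFP- cells, and the lowest level was 0.43 TPM, from 5 reads, in 5C-Oct4GFP+ cells. The order of the 4 highest libraries was that of *Axin2*, and every neighbour of *Sp5* differed beyond counting error.

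*Cdx1* (ENSMUSG00000024619, chromosome 18, 61018862 to 61036199) encodes a caudal-type homeobox factor that patterns the posterior embryo. It had 147.59 TPM in mES-Oct4GFP+ cells and 69.31 TPM after naïve medium. It had 0.73 TPM in 5C-Oct4GFP+ cells, 0.62 TPM in R1 ESCs-primed and 0.14 TPM in 5C-Oct4GFP- cells, from 7, 4 and 1 reads. No read was assigned to it in mES-Oct4GFP- and 5C-Oct4GFP+ (primed) cells, which allows up to 0.406 and 0.284 TPM. *Cdx1* was therefore high in 2 libraries and near the floor in the other 5, and the primed cells, which kept intermediate levels of *Axin2* and *Sp5*, were at the low end for *Cdx1*.

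The 3 DNA-binding effectors varied less. *Tcf7l1* (ENSMUSG00000055799, chromosome 6, 72626378 to 72789254), the main TCF repressor of embryonic stem cells, lay between 92.21 and 108.7 TPM in the 5 libraries of pluripotent cells and had 65.73 TPM in mES-Oct4GFP- cells and 50.64 TPM in 5C-Oct4GFP- cells. *Tcf7* (ENSMUSG00000000782, chromosome 11, 52252371 to 52283014), which encodes TCF1, lay between 55.78 and 67.13 TPM in the same 5 libraries and had 31.14 TPM in 5C-Oct4GFP- cells and 13.96 TPM in mES-Oct4GFP- cells. For both genes, no neighbours among the 5 pluripotent libraries differed beyond counting error. *Lef1* (ENSMUSG00000027985, chromosome 3, 131110471 to 131224356) had 45.66 TPM after naïve medium and 43.94 TPM in mES-Oct4GFP+ cells. It had 35.54 TPM in R1 ESCs-primed, 31.22 TPM in 5C-Oct4GFP+ cells and 27.45 TPM after primed medium. The 2 libraries with the least *Lef1* were those of 5C-Oct4GFP- (8.99 TPM) and mES-Oct4GFP- (7.13 TPM) cells. All 3 effectors were therefore lower in both Oct4GFP- libraries than in every pluripotent library. Whether the libraries kept strand is not given in the sources used here. They were taken as not marking it, and annotated antisense genes share exon bases with *Axin2* (209), *Tcf7l1* (179) and *Lef1* (1208), so that reads of either strand there cannot be told apart. The antisense genes at *Axin2* and *Tcf7l1* had at most 4.32 and 1.22 TPM. That at *Lef1* is not among the measured genes, so its part in the *Lef1* reads is not known.

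**Figure D1:**
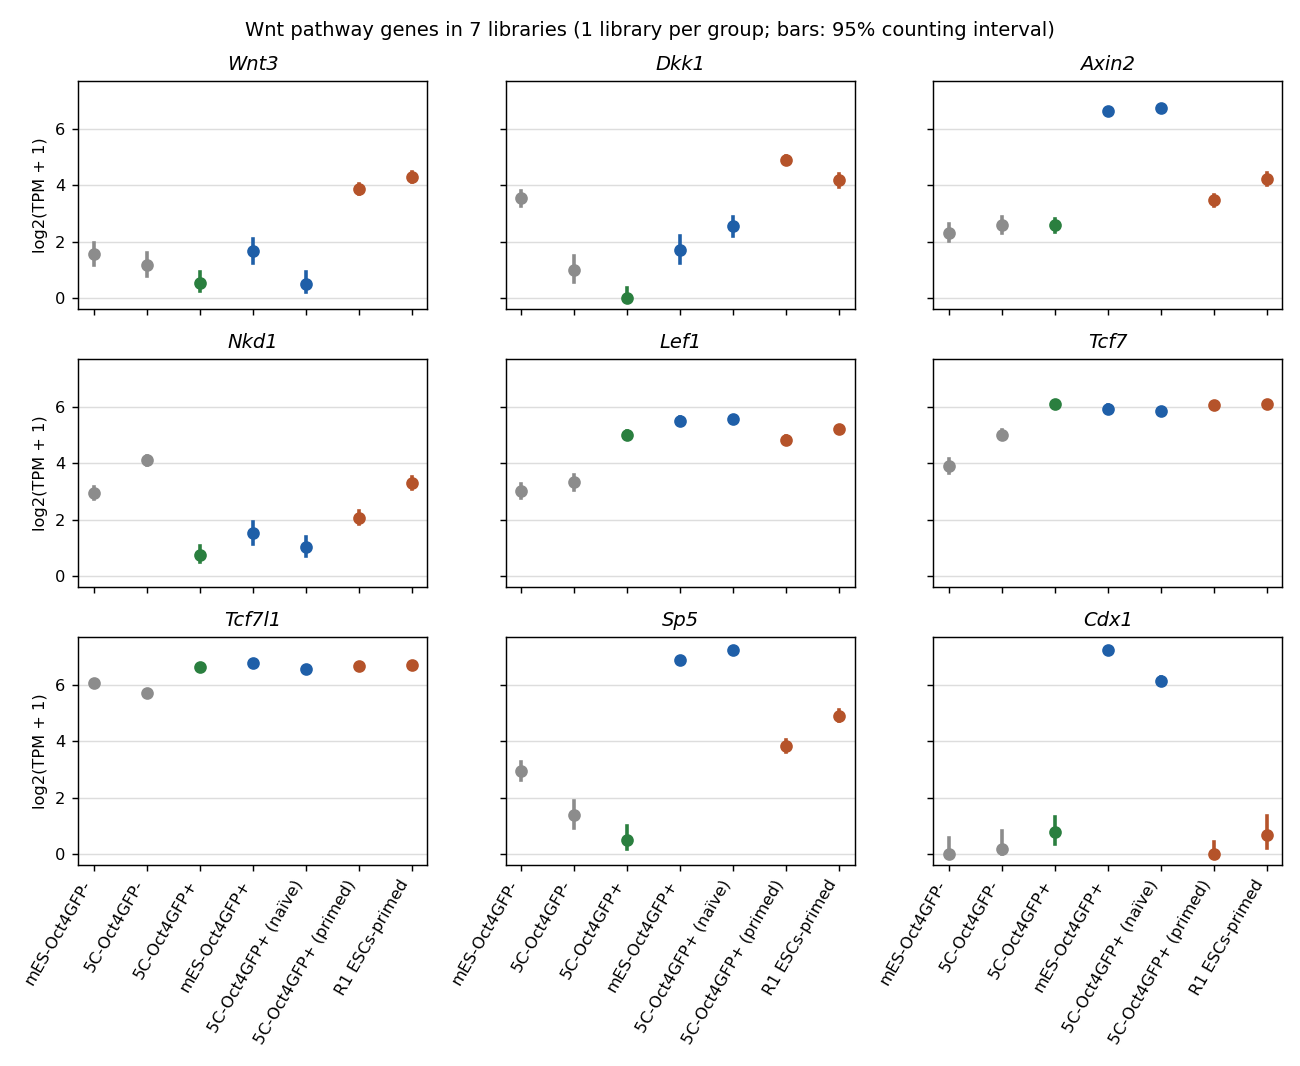
Level of each of the 9 genes, as log2(TPM + 1), in the 7 libraries, with 1 point per library and a bar for the 95% counting interval. *Axin2*, *Sp5* and *Cdx1* stand high in mES-Oct4GFP+ and 5C-Oct4GFP+ (naïve) cells (blue), *Wnt3* and *Dkk1* are highest in the primed cells (brown), and *Tcf7l1* is nearly level.

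Conversion in naïve medium addressed how 5C-Oct4GFP+ cells changed when moved toward the naïve state. *Sp5* was 348-fold higher in 5C-Oct4GFP+ (naïve) than in 5C-Oct4GFP+ cells (148 to 1068), *Cdx1* was 95-fold higher (45.7 to 236.9) and *Axin2* was 21.1-fold higher (17.3 to 26.2). *Dkk1*, which had no reads in 5C-Oct4GFP+ cells, was at least 17.09-fold higher. These 4 of the 8 genes that could be compared were called higher and none was called lower, where 10% of all 14863 genes tested were called higher and 17.5% lower. *Lef1* was 1.46-fold higher (1.3 to 1.64), below the 2-fold limit. *Tcf7* (0.84, 0.755 to 0.935), *Tcf7l1* (0.953, 0.883 to 1.03) and *Nkd1* (1.5, 0.75 to 3.01) had ratios close to 1 or with wide intervals. The median difference was 1.55 over the 8 genes and -0.10 over all genes tested, in log2(TPM + 1).

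Conversion in primed medium gave another set. *Wnt3* was 28.7-fold higher in 5C-Oct4GFP+ (primed) than in 5C-Oct4GFP+ cells (14.5 to 67.7) and *Sp5* was 30.8-fold higher (12.9 to 95.7). *Nkd1* was 4.6-fold higher (2.71 to 8.24) and *Dkk1* was at least 104.1-fold higher. Again 4 of 8 genes were called higher and none lower, beside 13.7% and 16.1% of 15067 genes. *Axin2* had a ratio of 2.01 (1.57 to 2.59), and its difference of 0.88 in log2(TPM + 1) stayed below the limit on that scale. *Tcf7* (0.993, 0.903 to 1.09), *Tcf7l1* (1.04, 0.972 to 1.12) and *Lef1* (0.879, 0.777 to 0.992) lay near 1, and *Cdx1* was under 1 TPM in both libraries. Both conversions are set against the same 5C-Oct4GFP+ library, so a low value there enters both. Summed TPM of 6 endoderm markers was 178.7 after primed and 3.08 after naïve medium against 2.53 in 5C-Oct4GFP+ cells, and that of 6 primed state markers was 1473 and 142.4 against 710.6. Their part in the differences of the Wnt genes was not tested.

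The naïve and primed libraries of common origin differed in both directions, and the feedback inhibitors *Axin2* and *Nkd1* went opposite ways. *Cdx1* was at least 197.6-fold, *Sp5* 11.3-fold (9.62 to 13.3) and *Axin2* 10.5-fold (9.03 to 12.3) higher in naïve than in primed medium. *Wnt3* was 32.1-fold (14.5 to 87.8), *Dkk1* 5.87-fold (4.44 to 8) and *Nkd1* 3.07-fold (1.89 to 5.22) higher in primed than in naïve medium. Of 9 genes, 3 were thus called higher in naïve medium and 3 lower, beside 16.7% and 22.2% of 15249 genes. *Lef1* was 1.66-fold higher in naïve medium (1.48 to 1.87), and *Tcf7* (0.846, 0.761 to 0.939) and *Tcf7l1* (0.914, 0.848 to 0.985) were slightly lower, although *Tcf7l1* turned to a difference of 0.05 after median-ratio rescaling. *Nkd1*, at a difference of -1.04, fell inside the 2-fold limit with FPKM (-0.79) or after rescaling by the median ratio (-0.94). The study lists *Axin2* and *Cdx1* among its naïve markers and *Wnt3*, *Dkk1* and *Nkd1* among its primed markers. It selected these markers on the same libraries, so the lists are not independent evidence of these directions.

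**Figure D2:**
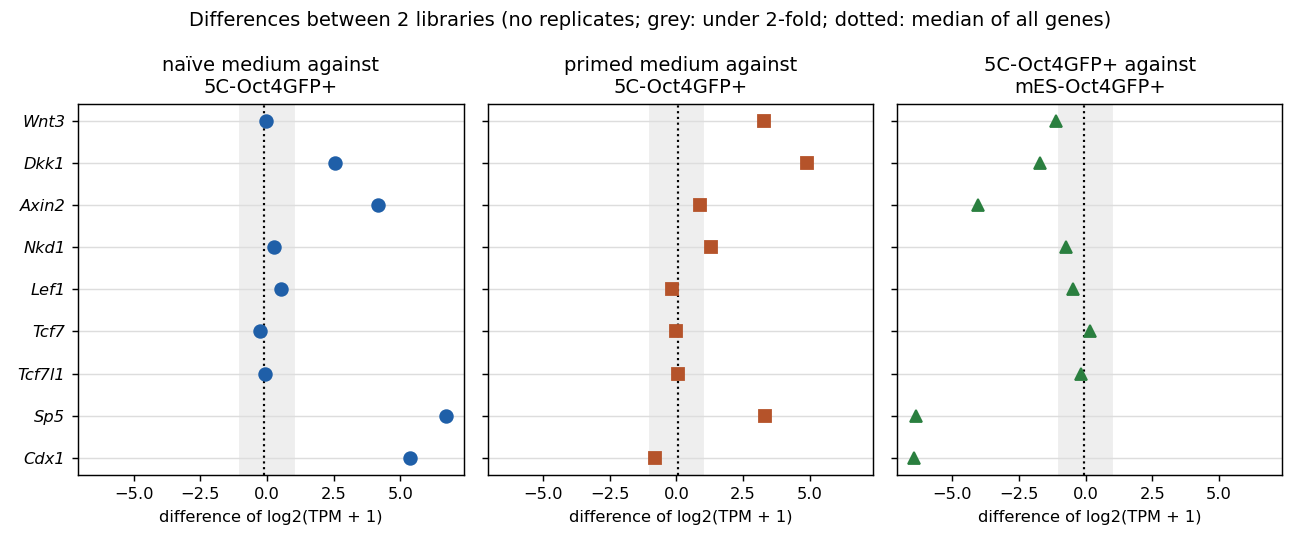
Difference of log2(TPM + 1) for each of the 9 genes in 3 comparisons, each point being 1 library against another without replicates. *Sp5*, *Cdx1*, *Axin2* and *Dkk1* lie right of the grey 2-fold band after naïve medium, *Sp5*, *Dkk1*, *Wnt3* and *Nkd1* do after primed medium, and *Sp5*, *Cdx1*, *Axin2*, *Dkk1* and *Wnt3* lie left of it in 5C-Oct4GFP+ against mES-Oct4GFP+ cells. The dotted line marks the median of all genes tested.

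Oct4GFP+ cells from mES and 5C medium differed in *Sp5*, *Cdx1* and *Axin2*, while the 3 effectors were within 2-fold. In 5C-Oct4GFP+ cells *Sp5* was 271-fold (115 to 832.4), *Cdx1* 202.2-fold (97.5 to 503.6) and *Axin2* 19.7-fold (16.1 to 24.6) lower than in mES-Oct4GFP+ cells. *Dkk1* was at least 7.538-fold and *Wnt3* 4.68-fold (2.02 to 12.2) lower. Of 9 genes, 5 were called lower and none higher, beside 13.5% and 13.7% of 15196 genes. *Nkd1* was 2.66-fold lower (1.38 to 5.23) and under the limit, which it passed with a pseudocount of 0.1 (-1.29). *Wnt3* was not called with FPKM (-0.80), and with at least 5 TPM required in either library *Wnt3* and *Dkk1* dropped out and 3 genes were called lower. *Tcf7* (1.11, 0.986 to 1.25), *Tcf7l1* (0.89, 0.819 to 0.967) and *Lef1* (0.711, 0.624 to 0.811) had ratios near or a little below 1. Fibroblast markers were low in both libraries (17.9 and 28.4 summed TPM), while primed state markers were at 710.6 TPM in 5C-Oct4GFP+ cells against 122.8 TPM, and their part in these differences was not tested.

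Among Oct4GFP- cells the same media gave *Nkd1* 2.41-fold (1.95 to 3) and *Tcf7* 2.23-fold (1.81 to 2.76) higher in 5C than in mES medium. *Dkk1* was 10.6-fold (5.57 to 22.8) and *Sp5* 4.14-fold (2.29 to 8.03) lower in 5C medium. Of 8 genes, 2 were called higher and 2 lower, beside 9.68% and 10.1% of 15859 genes. *Axin2* did not differ detectably (1.25, 0.886 to 1.78). These libraries also differed in their fibroblast markers (492.8 against 1194 summed TPM) and pluripotent cell markers (515.7 against 220.3). Of 14 fibroblast markers, 9 were called lower in 5C medium and 2, *Col6a3* and *Thy1*, higher. *S100a4* alone had 115.32 against 536.45 TPM. Of 10 pluripotent cell markers, 6 were called higher in 5C medium and none lower. The part of these cells in the differences was not tested.

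Sorting by the reporter compared Oct4GFP+ with Oct4GFP- cells of the same medium. In mES medium, *Axin2* was 24.6-fold (19.1 to 32.4) and *Sp5* 17.4-fold (13.3 to 23) higher in Oct4GFP+ cells. *Lef1* was 6.16-fold (4.93 to 7.76), *Tcf7* 4.29-fold (3.53 to 5.24) and *Cdx1* at least 295.3-fold higher in them. *Dkk1* was 4.6-fold (2.79 to 8.07) and *Nkd1* 3.62-fold (2.34 to 5.8) lower in Oct4GFP+ cells. Of 9 genes, 5 were called higher and 2 lower, beside 17.9% and 28.8% of 16294 genes. *Wnt3* did not differ detectably (1.12, 0.606 to 2.06).

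In 5C medium, *Lef1* was 3.47-fold (2.82 to 4.32) and *Tcf7* 2.13-fold (1.86 to 2.45) higher in Oct4GFP+ than in Oct4GFP- cells. *Nkd1* was 23.2-fold (14.2 to 40.3) lower and *Dkk1* at least 2.998-fold lower. Of 8 genes, 2 were called higher and 2 lower, beside 8.45% and 22.6% of 15675 genes. *Axin2* was at the same level in both 5C libraries (0.996, 0.731 to 1.36), and *Sp5*, with 5 and 14 reads, was 3.77-fold lower in 5C-Oct4GFP+ cells (1.28 to 13.3). *Tcf7l1* was 1.91-fold higher in 5C-Oct4GFP+ cells (1.74 to 2.1) and passed the limit after median-ratio rescaling, with a difference of 1.14. The call of *Dkk1* rested on 10 reads in 5C-Oct4GFP- cells and a difference at the limit itself, and it was lost with FPKM (-0.59), after rescaling (-0.92) or with at least 5 TPM required. The fibroblast markers were 1194 against 17.9 summed TPM in mES medium and 492.8 against 28.4 in 5C medium, and their part was not tested.

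The converted cells were also set beside the primed R1 cells and the cells from mES medium. Between 5C-Oct4GFP+ (primed) cells and R1 ESCs-primed, *Nkd1* was 2.75-fold (2.09 to 3.63) and *Sp5* 2.18-fold (1.78 to 2.67) lower in the former. Of 8 genes, 2 were called lower and none higher, beside 5.09% and 2.3% of 14600 genes, and with FPKM the difference of *Sp5* came to -0.9956 and its call was lost. *Axin2* was 1.76-fold (1.42 to 2.17) and *Wnt3* 1.37-fold (1.14 to 1.65) lower and *Dkk1* 1.69-fold (1.4 to 2.04) higher in the converted cells, all under 2-fold. *Tcf7* and *Tcf7l1* had ratios of 0.982 (0.884 to 1.09) and 0.981 (0.909 to 1.06). Of 14 fibroblast markers, 11 were also called lower in the converted cells (113.9 against 340.9 summed TPM), and their part in the differences was not tested.

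Against mES-Oct4GFP+ cells, 5C-Oct4GFP+ (naïve) cells had 2.13-fold less *Cdx1* (1.91 to 2.38) and 5.24-fold less *Wnt3* (2.05 to 15.7), the latter from 6 and 22 reads. Of 9 genes, 2 were called lower and none higher, beside 6.27% and 2.49% of 14477 genes. After median-ratio rescaling the share of higher calls among all calls moved from 28.45% to 40.97%, and *Cdx1* came to -0.91 and was no longer called. Neither gene was called with FPKM (*Cdx1* -0.9986, *Wnt3* -0.83). *Sp5* was 1.28-fold higher in naïve medium (1.18 to 1.4), *Dkk1* was 2.13-fold higher (1.22 to 3.83) without reaching the limit on the log scale, and *Axin2*, *Lef1* and *Tcf7* did not differ beyond counting error.

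The other genes of the pathway, 105 in 8 lists by role, were read in the same way. Of those with enough reads, 9 were higher and 14 lower of 72 after naïve medium against 5C-Oct4GFP+ cells, near the 10% and 17.5% of all genes. After primed medium 29 were higher and 8 lower of 82, beside 13.7% and 16.1% of all genes. Between the converted cells, 7 of 81 were higher in naïve medium and 31 were lower, beside 16.7% and 22.2% of all genes. In 5C-Oct4GFP+ against mES-Oct4GFP+ cells 14 of 79 were higher and 13 lower, near the 13.7% and 13.5% of all genes. The median difference of the pathway genes was 0.55 after primed medium, against 0.06 for all genes tested, and -0.14 after naïve medium, against -0.10.

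Wnt ligands other than *Wnt3* were low in most libraries, with 4 to 15 of 18 at 1 TPM or more and a sum of 17.87 TPM in 5C-Oct4GFP+ (naïve) cells to 83.05 TPM in R1 ESCs-primed. *Wnt8a*, a ligand of the posterior epiblast, had 42.73 TPM in R1 ESCs-primed and 21.09 TPM in 5C-Oct4GFP+ (primed) cells and 1.68 to 4.31 TPM elsewhere, so it shared its 2 highest libraries with *Wnt3*. *Wnt11* had 13.25 and 8.77 TPM in the same libraries but also 6.7 TPM in mES-Oct4GFP- cells. *Wnt6* was highest in 5C-Oct4GFP+ cells (10.21 TPM) and *Wnt5a*, a ligand best known for signaling without β-catenin, was lowest in mES-Oct4GFP+ (0.14 TPM) and 5C-Oct4GFP+ (naïve) cells (0.03 TPM). The genes that modify and release every Wnt protein differed both by medium and by sorted fraction. *Porcn*, the acyltransferase that lipidates Wnts, had 46.67 TPM in mES-Oct4GFP+ cells and 13.12 TPM in 5C-Oct4GFP+ cells, and *Wls*, their carrier to the surface, had 24.26 and 2.98 TPM. Both genes had their highest levels in mES-Oct4GFP- cells, at 116.49 and 113.22 TPM. In 5C-Oct4GFP- cells *Porcn* had 16.96 TPM and *Wls* 46.62 TPM.

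Most receptor genes called after primed medium were higher. Of 15 Frizzled, LRP, ROR and RYK genes, 8 were called higher in 5C-Oct4GFP+ (primed) than in 5C-Oct4GFP+ cells and 1, *Fzd7*, was lower, beside 13.7% and 16.1% of all genes. After naïve medium 1 of 12 was higher and 2 were lower, beside 10% and 17.5%. *Fzd2* had 47.64 TPM in 5C-Oct4GFP+ (primed) cells, 48.44 TPM in R1 ESCs-primed, 7.81 TPM in 5C-Oct4GFP+ cells and 2.06 TPM after naïve medium. *Fzd7* was highest in 5C-Oct4GFP+ cells, with 85.01 TPM against 2.18 TPM after naïve medium. *Fzd10* had the opposite pattern, with 74.9 TPM after naïve medium, 64.66 TPM in mES-Oct4GFP+ cells and 3.64 TPM in 5C-Oct4GFP+ cells, the same 2 highest libraries as *Axin2*, *Sp5* and *Cdx1*. Of the R-spondins and their receptors, which prolong Frizzled signaling, *Lgr5* had 33.09 TPM in 5C-Oct4GFP+ (primed) cells, 19.66 TPM in R1 ESCs-primed and at most 1.6 TPM elsewhere. *Rspo3* had 18.93 and 10.75 TPM in R1 ESCs-primed and 5C-Oct4GFP+ (primed) cells and 9.18 TPM in mES-Oct4GFP- cells.

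The secreted antagonists split by gene. *Notum*, which removes the lipid from Wnt proteins and is itself a Wnt target, had 153.76 TPM in 5C-Oct4GFP- cells and 22.3 TPM in mES-Oct4GFP- cells. It had 74.77 TPM after naïve medium, 96.36 TPM in 5C-Oct4GFP+ cells and 109.3 TPM in mES-Oct4GFP+ cells, but 1.89 TPM after primed medium and 1.05 TPM in R1 ESCs-primed. *Frzb*, which binds Wnts outside the cell, had 25.49 and 18.11 TPM in the 2 primed libraries and 0 TPM in mES-Oct4GFP+ and 5C-Oct4GFP+ (naïve) cells. *Dkk1* and *Notum* thus stood at opposite ends in the primed cells. After primed medium 3 of 10 antagonists were called higher and 3 lower, beside 13.7% and 16.1% of all genes.

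Genes of the cytoplasmic machinery were mostly within 2-fold after conversion. None of 18 genes of cytoplasmic transduction was called after primed medium, where 13.7% of all genes were higher and 16.1% lower. After naïve medium 1, *Apc2*, was lower and none higher, beside 17.5% and 10% of all genes. *Ctnnb1*, which encodes β-catenin, lay between 483.23 TPM in 5C-Oct4GFP+ cells and 617.93 TPM after primed medium. *Tnks*, whose product marks Axin for degradation, had 58.15 TPM after primed medium and 17.11 TPM after naïve medium. Among nuclear partners, 4 of 11 were higher and 1 was lower after primed medium, beside 13.7% and 16.1% of all genes. Those higher included *Tcf7l2*, the fourth TCF/LEF gene, with 20.53 TPM against 5.52 TPM in 5C-Oct4GFP+ cells. *Tcf7l2* was also at 23.22 and 16.26 TPM in mES-Oct4GFP- and 5C-Oct4GFP- cells, the libraries in which *Lef1*, *Tcf7* and *Tcf7l1* were lowest. The study lists *Tcf7l2* among its primed markers, chosen on these libraries.

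Other genes described as Wnt targets followed more than one pattern. After primed medium 7 of 11 were called higher and 1 lower, beside 13.7% and 16.1% of all genes, and after naïve medium 3 were higher and 3 lower of 11, beside 10% and 17.5%. In 5C-Oct4GFP+ against mES-Oct4GFP+ cells 3 of 12 were called higher and 4 lower, beside 13.7% and 13.5%. *T*, the brachyury factor of the primitive streak, had 374.06 TPM in R1 ESCs-primed, 155.31 TPM after primed medium, 14.49 TPM after naïve medium and 0.24 TPM in 5C-Oct4GFP+ cells. *Fgf8*, a streak ligand, had 208.31 and 156.93 TPM in the primed libraries and at most 18.28 TPM elsewhere. *T* and *Fgf8* therefore shared their highest libraries with *Wnt3* and *Wnt8a*. *Cd44* was highest in mES-Oct4GFP- cells (313.69 TPM), followed by 5C-Oct4GFP- cells (66.95 TPM), and had 0.36 TPM in mES-Oct4GFP+ cells. *Jun* was high in both Oct4GFP- libraries (337.11 TPM in 5C and 294.1 TPM in mES medium) and also reached 108.01 TPM in 5C-Oct4GFP+ cells, against 3.08 TPM in mES-Oct4GFP+ cells. Summed fibroblast markers were 1194 and 492.8 TPM in mES-Oct4GFP- and 5C-Oct4GFP- cells, and 17.9 and 28.4 TPM in the corresponding Oct4GFP+ cells. Their part in the levels of *Cd44* and *Jun* was not tested. In mES medium 48 of 96 pathway genes were lower in Oct4GFP+ than in Oct4GFP- cells and 8 were higher, beside 28.8% and 17.9% of all genes and a median difference of -0.15 over all genes. In 5C medium 33 of 83 were lower and 2 higher, beside 22.6% and 8.45% of all genes and a median of -0.25. After median-ratio rescaling the 5C counts came to 25 lower and 6 higher, beside 2823 lower and 1664 higher of all 15675 genes tested.

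**Figure D3:**
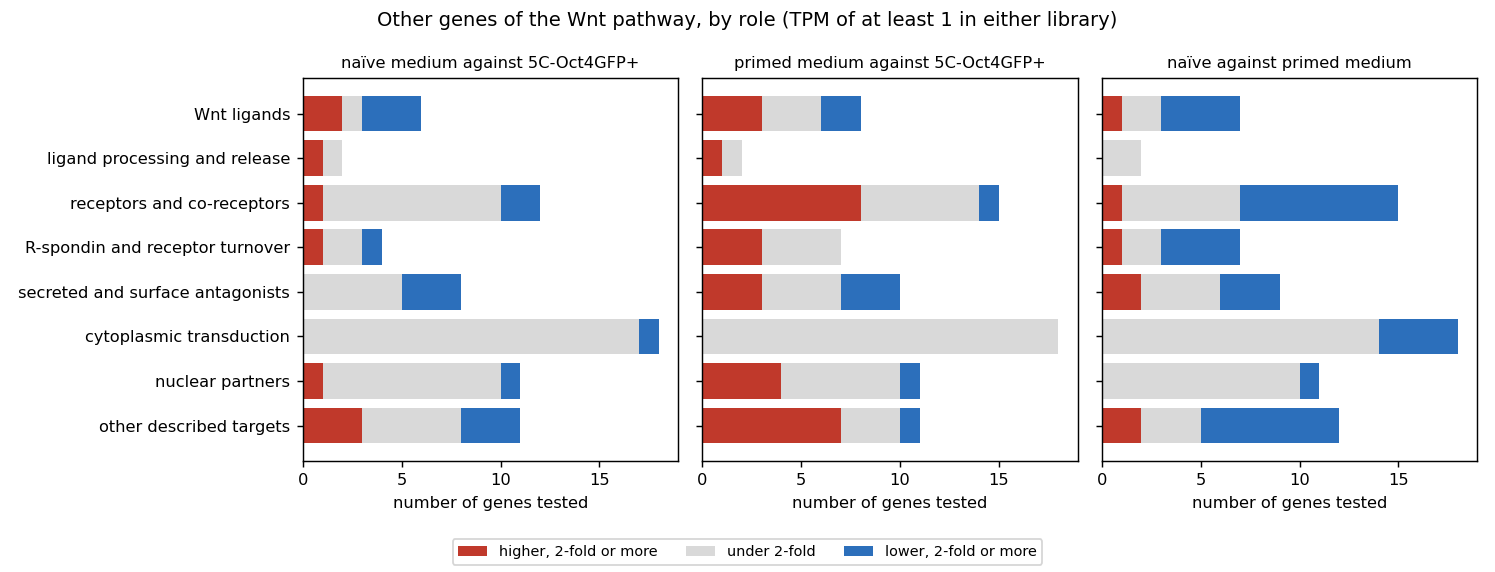
Number of pathway genes called higher (red), lower (blue) or within 2-fold (grey) in 3 comparisons, by role, among genes with at least 1 TPM in either library. After primed medium 8 of 15 receptors and 7 of 11 other described targets were higher, and none of 18 cytoplasmic genes was called. Over all genes tested, 13.7% were higher and 16.1% lower.

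**Figure D4:**
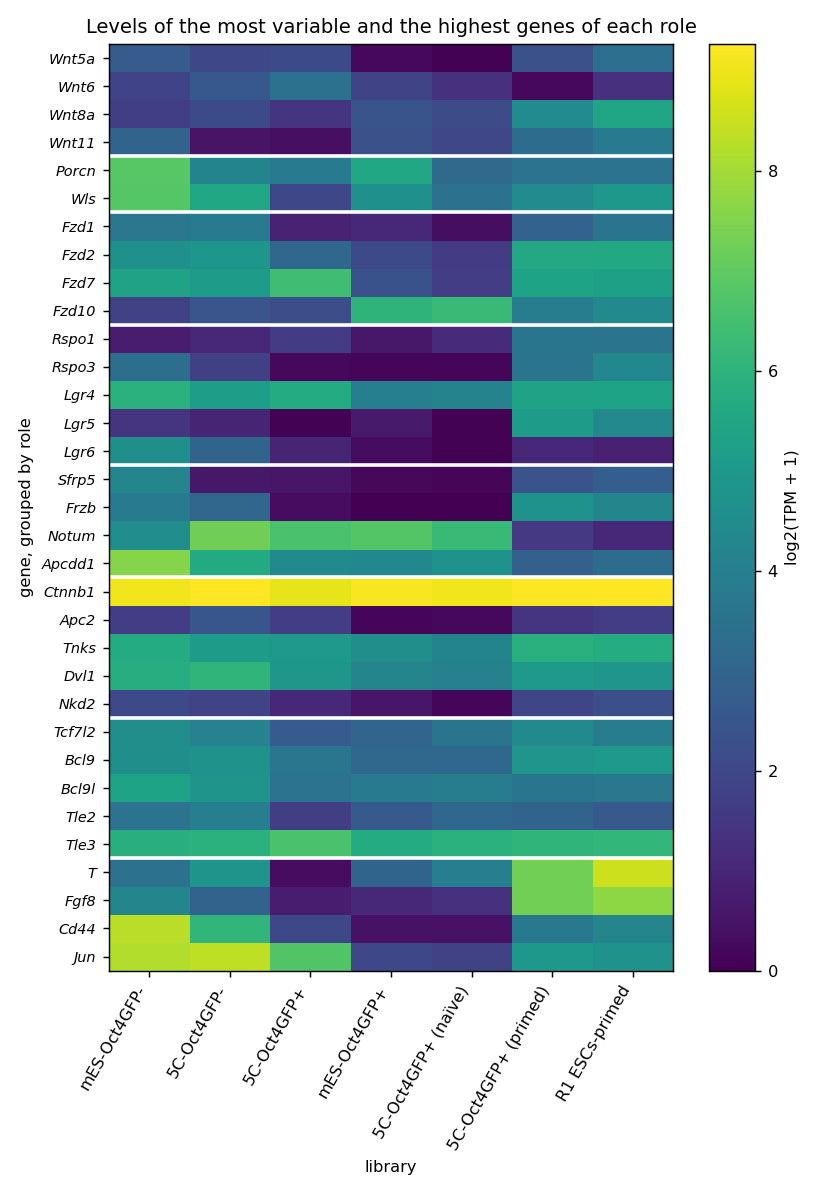
Levels, as log2(TPM + 1), of the named pathway genes (rows, grouped by role with white lines) in the 7 libraries (columns). *T*, *Fgf8*, *Wnt8a* and *Lgr5* are bright in both primed columns, *Fzd10* in mES-Oct4GFP+ and 5C-Oct4GFP+ (naïve) cells, and *Ctnnb1* in all 7.

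Across the 7 libraries, some of the 9 genes varied together. Pearson's r of log2(TPM + 1) was 0.929 between *Axin2* and *Sp5*, 0.94 between *Axin2* and *Cdx1* and 0.802 between *Sp5* and *Cdx1*. It was 0.893 between *Lef1* and *Tcf7*, 0.893 between *Lef1* and *Tcf7l1* and 0.796 between *Wnt3* and *Dkk1*. *Nkd1* had an r of -0.469 with *Axin2* and -0.69 with *Lef1*. Each r is a description of 7 points that share their library and depth, and those of *Axin2*, *Sp5* and *Cdx1* rest on the 2 high libraries. Among 9949 genes with at least 5 TPM in a library and a range of at least 2-fold, the gene closest in pattern to *Wnt3* was *Idnk* (r 0.989), followed by *Bmp7* (0.987), a BMP ligand with 20.09 and 17.5 TPM in R1 ESCs-primed and 5C-Oct4GFP+ (primed) cells. The closest to *Axin2* was *Cd3eap* (0.996), with 84.63 and 80.12 TPM in mES-Oct4GFP+ and 5C-Oct4GFP+ (naïve) cells and 23.16 to 41.14 TPM elsewhere, so over a narrower range. The closest to *Cdx1* was *Hoxc13* (0.998), a posterior homeobox gene with 15.72 and 10.02 TPM in those libraries and at most 0.76 TPM elsewhere. *Sp5* was closest to *Tmem150a* (0.976), *Dkk1* to *Rida* (0.976), *Nkd1* to *Rasa3* (0.984), *Lef1* to *Pepd* (0.989), *Tcf7* to *BC055324* (0.994) and *Tcf7l1* to *Zswim7* (0.973). Of the 27 genes found as the nearest 3 of each gene, 4 stayed among the nearest 3 by Spearman's rho and 17 with a pseudocount of 0.1, so that these names depend on the measure.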

How the data were processed

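The authors extracted total RNA with TRIzol, prepared TruSeq libraries, sequenced them on an Illumina MiSeq and ran RSEM, which the submitters' processing notes list with Bowtie and the mm10 build. The version of RSEM is not given in the sources used here. The deposited tables give expected counts, the reads that RSEM estimated for each Ensembl gene, without normalization. The deposited TPM values are these counts divided by effective length and scaled to 1 common total per library. FPKM, calculated by the authors per length and mapped fragments, served only as an alternative. The deposited length columns are abundance-weighted means over isoforms.

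Symbols came from GENCODE M21 (GRCm38) for 28756 of the 29267 identifiers. Differences were taken on log2(TPM + 1), which understates changes of low genes. Genes with at least 1 TPM in either library were called at 2-fold in 9 comparisons, all of which share libraries with others. With 1 library per group no test was possible and no p-value is given. Intervals (95%, Clopper-Pearson) used counts rounded to whole numbers. All 9 genes were named, with up to 4 most variable genes and the highest gene of each of 8 pathway lists and the 3 genes most like each of the 9. The 9 genes and all lists were chosen with earlier results of these data known. Alternatives were a pseudocount of 0.1, at least 5 TPM, no filter, FPKM, median-ratio rescaling, CPM computed from the counts, and Spearman's rho. The calculations were tested on simulated data. The software was Python 3.11.15 with pandas 2.3.3, numpy 2.4.6, matplotlib 3.10.9 and scipy 1.17.1.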

Additional observations from a re-analysis of the deposited data

Results flagged for a closer look

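*Nkd1* was flagged because its difference between the media had opposite signs in the sorted fractions. In log2(TPM + 1), 5C minus mES medium was -0.75 in Oct4GFP+ cells and 1.16 in Oct4GFP- cells. *Sp5* was flagged because its difference between the fractions had opposite signs in the media, with Oct4GFP+ minus Oct4GFP- at 3.93 in mES medium and -0.87 in 5C medium. The *Sp5* values in 5C medium came from 5 and 14 reads. With 1 library per group, neither difference was tested.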

How the results depend on the processing

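No paired analysis was possible because each group has 1 library and the labels give no replicate numbers that could pair them. For the same reason no library could be left out within a group. The 38 called differences of the 9 genes gave 221 recomputed values under the alternatives, of which 0 reversed and 9 fell below 2-fold. Calls left untested by the minimum of 5 TPM are not among these 221. Alternatives for the pathway lists were chosen after seeing the data. Median-ratio rescaling moved the median of all genes from -0.25 to -0.05 for 5C-Oct4GFP+ against 5C-Oct4GFP- cells, from -0.16 to -0.01 for naïve against mES-Oct4GFP+ cells, from -0.14 to 0.03 for naïve against primed medium, from -0.15 to -0.01 for the sort in mES medium and from -0.10 to 0.01 for naïve conversion. Where counts moved by over 1.5 times, the cause was not tested beyond the fewer genes that a higher minimum leaves.

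With at least 5 TPM required, 3 of the 9 genes were lower in 5C than in mES medium among Oct4GFP+ cells, beside 1305 of all 11479 genes tested. Under that minimum 1 was lower in 5C-Oct4GFP+ than in 5C-Oct4GFP- cells (2517 of 12124 genes). Another 1 was lower in naïve than in mES-Oct4GFP+ cells (446 of 10726 genes). With a pseudocount of 0.1, 4 were lower in 5C-Oct4GFP+ than in 5C-Oct4GFP- cells and 1, *Dkk1*, was higher in naïve than in mES-Oct4GFP+ cells. Over all genes these were 4289 of 15675 and 592 of 14477. With FPKM, 1 was lower in the sort in 5C medium, 1 in 5C-Oct4GFP+ (primed) cells than in R1 ESCs-primed, and 0 in naïve than in mES-Oct4GFP+ cells. Over all genes 2565 of 15675, 424 of 14600 and 417 of 14477 were lower. With median-ratio rescaling 1 was lower in the sort in 5C medium and 1 in naïve against mES-Oct4GFP+ cells, beside 2823 of 15675 and 709 of 14477 genes. The log2 range over the libraries became 5.16 for *Wnt3* and 4.35 for *Nkd1* with the pseudocount of 0.1 (3.78 and 3.34 with 1), and 1.26 for *Tcf7l1* after rescaling (1.09 before). Of the 27 genes nearest in pattern, 4 remained by Spearman's rho and 17 with the pseudocount of 0.1.

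For the 105 pathway genes, the requirement of 5 TPM left 9 higher and 8 lower in 5C than in mES medium among Oct4GFP+ cells. Over all genes these were 1434 and 1305 of 11479. It left 1 higher in the sort in 5C medium (941 of 12124 genes). In primed against R1 primed cells 3 were lower (370 of 11017 genes), and in naïve against mES-Oct4GFP+ cells 3 were lower (446 of 10726 genes). The counts higher in the sort in 5C medium were 5 with the pseudocount of 0.1, 4 with FPKM, 6 after rescaling and 5 with CPM. Over all 15675 genes they were 1609, 1162, 1664 and 1250, in the same order. In primed against R1 primed cells 2 were higher with the pseudocount of 0.1, after rescaling and with CPM, and 4 were lower with FPKM. Over all 14600 genes 609, 355 and 214 were higher and 424 lower, in the same order. In naïve against mES-Oct4GFP+ cells 3 were higher and 12 lower with the pseudocount of 0.1, and 2 were higher after rescaling and with CPM. Over all 14477 genes 592 were higher and 1640 lower with that pseudocount, and 492 and 231 were higher after rescaling and with CPM.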
